A study of Mus musculus with 6 samples.

Results

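The genes CCDC124, AKIRIN2, NEURL1 and SAMM50 were examined in a comparison of a MyoD-silenced clone with control cells during muscle differentiation. They are 4 of 1521 named genes on the array, found by gene symbol in a platform annotation table, and each had 1 probe printed as 2 spots, so that 8 of 5376 spots were theirs. They had been selected on their measured scores, because these, centred on the median of each array, lay above 0 on all 6 arrays. Their scores are therefore given as a description with no test, and tests are given only for differences between days and between dye orientations. The choice did not ask for such differences, but it used the same array values, so these tests are not fully independent of it.

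C2C12 is a mouse myoblast line of C3H origin that fuses into myotubes in differentiating medium with horse serum. The clone, MyoD(-)cl.A8, is 1 clone of C2C12 cells transfected with the mouse MyoD transcript in antisense orientation in a pcDNA vector and selected with G-418. It was compared with C2C12 control cells, for which the labels name no vector, so that MyoD silencing cannot be told apart from transfection, selection and the choice of a clone. RNA from days 1, 3 and 6 of differentiation was hybridised in 2 colours to a muscle array built for human genes, with 2 arrays per day. On replicate A the clone was labelled with Cy5 and on replicate B with Cy3. A day's arrays compared the same kinds of RNA and were counted as 1 replicate, which gives n = 3 days.

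The deposited values are scores per spot. Neither their scale nor their centring nor their direction is stated, so they cannot be turned into fold changes. Above 0 is read as higher in the clone, the likely direction, because the clone is labelled as the test RNA and the control as the reference. Whether the mouse RNA bound by a human probe came from the gene it is named for was not tested. A score compares clone with control for 1 probe and says nothing of how abundant a transcript was. Duplicate spots and probes of a gene were averaged to 2466 features. Across features, which are not independent replicates, the correlation was 0.16 to 0.21 between a day's 2 arrays and -0.078 to 0.12 between arrays of different days. The precision is limited by the number of arrays, and without spot intensities signal over background is not known. MYOD1, the silenced gene, stood at 0.41 and -0.36 on day 1, 1.11 and -1.03 on day 3, and 0.50 and 0.26 on day 6, but the construct is itself transcribed from MyoD sequence, so this does not check the silencing. Of 16 markers of myoblasts and myotubes 11 were measured, with mean scores from -1.23 to 0.90 and none past limma's test of the shared change; a score of clone against control cannot show whether they were present. The blood marker HBA1 lay above 0 on 6 of 6 arrays, from 0.25 to 2.98, and its part in the scores of the 4 genes was not tested. The other listed blood marker measured, HBB, ran from -0.44 to 1.89. HBA2, measured but not among the listed markers, had a mean of 0.78 and a lowest array of -0.69. Of the markers of smooth muscle and fibroblasts 3 of 9 were measured, with means from -0.87 to 0.25, of adipocytes 2 of 4, from -0.04 to 0.04, and of bone and cartilage 0 of 5; none passed.

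The 4 genes belong to no single pathway. SAMM50 is the central subunit of the sorting and assembly machinery, which folds beta-barrel proteins into the outer mitochondrial membrane and touches the MICOS complex that shapes the cristae. AKIRIN2 is a small nuclear protein that takes part in the import of proteasomes into the nucleus and links transcription factors to SWI/SNF chromatin remodelling. NEURL1 is a RING-type ubiquitin ligase of the neuralized family, known for promoting endocytosis of Notch ligands; Notch signalling restrains myogenic differentiation. CCDC124 is a coiled-coil protein found on idle ribosomes and at the centrosome and midbody. MyoD itself binds E-boxes, short sequences that it recognises together with E proteins.

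Promoter sequences of the mouse genes were read to see which of these letters stand next to the starts of the 4 genes. All 4 matched a mouse gene, 3 by symbol and NEURL1 through a synonym of Neurl1a, and each had 1 promoter of 300 bases, from 250 before to 50 after the gene's start, in RefSeq on GRCm38.p6. The motifs searched on both strands were the E-box CANNTG, its form CAGCTG that MyoD favours, which is also a CANNTG, and GCCATNTT, a core of the sites of YY1, a zinc finger factor that activates or represses by context. The YY1 motif was chosen after the sequences had been read. Sequences run 5′ to 3′ along the gene, and capitals mark the matches.
Ccdc124, chr8:70873441-70873740, minus strand: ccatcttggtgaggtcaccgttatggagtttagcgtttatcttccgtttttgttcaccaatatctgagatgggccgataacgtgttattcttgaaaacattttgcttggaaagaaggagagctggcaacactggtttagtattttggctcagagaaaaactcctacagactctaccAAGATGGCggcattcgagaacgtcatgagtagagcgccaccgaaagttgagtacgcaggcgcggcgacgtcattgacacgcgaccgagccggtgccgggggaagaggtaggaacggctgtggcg
Akirin2, chr4:34550365-34550664, plus strand: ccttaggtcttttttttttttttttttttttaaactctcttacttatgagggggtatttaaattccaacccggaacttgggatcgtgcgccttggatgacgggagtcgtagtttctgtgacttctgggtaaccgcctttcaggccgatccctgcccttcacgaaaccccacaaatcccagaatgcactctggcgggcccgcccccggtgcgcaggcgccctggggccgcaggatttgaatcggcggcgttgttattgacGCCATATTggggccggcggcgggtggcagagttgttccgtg
Neurl1a, chr19:47178570-47178869, plus strand: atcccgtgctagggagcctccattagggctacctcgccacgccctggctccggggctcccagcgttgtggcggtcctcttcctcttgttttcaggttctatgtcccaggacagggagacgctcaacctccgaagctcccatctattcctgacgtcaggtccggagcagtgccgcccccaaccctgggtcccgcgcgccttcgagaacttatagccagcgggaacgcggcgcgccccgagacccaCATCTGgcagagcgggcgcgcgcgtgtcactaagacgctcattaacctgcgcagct
Samm50, chr15:84191990-84192289, plus strand: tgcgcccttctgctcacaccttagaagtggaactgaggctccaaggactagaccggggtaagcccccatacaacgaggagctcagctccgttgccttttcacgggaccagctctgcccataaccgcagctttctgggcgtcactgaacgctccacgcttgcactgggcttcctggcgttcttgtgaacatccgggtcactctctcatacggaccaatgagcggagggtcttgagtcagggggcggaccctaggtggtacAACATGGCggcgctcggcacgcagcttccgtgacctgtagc

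The E-box was found in 1 of the 4 promoters, that of Neurl1a, as CATCTG with its first letter 6 bases before the start. Over all 32851 promoters of this length 72.3% held a CANNTG and 16.3% a CAGCTG, and CAGCTG was in none of the 4. GCCATNTT was found in the other 3 promoters and in 6.05% of all. It read GCCATATT in Akirin2, with its first letter 9 bases after the start. In Samm50 it lay on the opposite strand, as AACATGGC, also 9 bases after the start. In Ccdc124 it lay on the opposite strand, as AAGATGGC, with its first letter 74 bases before the start. The GC content was 50.7% in Ccdc124, 54.7% in Akirin2, 60.0% in Samm50 and 64.3% in Neurl1a, against a median of 52.7%. These matches describe letters in a short window, and no binding was measured.

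SAMM50 (Entrez Gene 25813) stood at 1.47 on replicate A and 0.78 on replicate B of day 1, at 2.39 and 0.35 on day 3, and at 3.64 and 1.71 on day 6. Replicate A was the higher array on each of the 3 days. The day means were 1.13, 1.37 and 2.67, which average 1.72 ± 0.83 (SD, n = 3 days). Day 6 thus had the highest mean, and both of its arrays there lay above both arrays of day 1. On the day 6 replicate A, 0.203% of the features scored as high or higher, whereas on the day 3 replicate B 36.4% did. Of its 12 spot values, 10 were above 0: on day 1 the first spot of replicate B was at -0.11, and on day 3 the second spot of replicate B was at -0.23.

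AKIRIN2 (Entrez Gene 55122) stood at 0.69 and 3.42 on replicates A and B of day 1, at 0.26 and 1.61 on day 3, and at 2.77 and 2.00 on day 6. Its lowest array was the day 3 replicate A, where 40.8% of the features scored as high or higher. The day means were 2.06, 0.93 and 2.39, which average 1.79 ± 0.76 (SD, n = 3 days). Day 3 lay below both other days in mean, but the day 3 replicate B was above the day 1 replicate A. The 2 spots of this probe differed more than those of the other 3 genes. The first averaged 2.68 and the second 0.90, and the first was the higher on 5 of 6 arrays. Their mean gap of 1.87 was larger than or equal to that of 88.4% of the probes, whose median was 1.23. The second spot stood at -0.68 on the day 1 replicate A, the only one of its 12 spot values below 0.

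NEURL1 (Entrez Gene 9148) stood at 1.23 and 2.03 on replicates A and B of day 1, at 3.12 and 0.04 on day 3, and at 1.08 and 2.62 on day 6. Day 3 held both its highest and its lowest array. Its day means of 1.63, 1.58 and 1.85 were the closest together of the 4 genes and average 1.69 ± 0.14 (SD, n = 3 days). The arrays within a day were much farther apart than the day means. On the day 3 replicate B, 48.4% of the features scored as high or higher, and its spots there stood at 0.50 and -0.43. On the other 5 arrays both spots were above 0, so that 11 of 12 spot values were.

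CCDC124 (Entrez Gene 115098) stood at 1.66 and 1.82 on replicates A and B of day 1, at 2.87 and 2.40 on day 3, and at 0.31 and 3.63 on day 6. Its highest and lowest arrays were both from day 6. The day means were 1.74, 2.63 and 1.97, which average 2.11 ± 0.46 (SD, n = 3 days). The arrays of day 1 and of day 3 lay close together, and both day 3 arrays lay above both day 1 arrays. The day 3 spots lay farther apart, the first and second at 3.69 and 2.05 on replicate A and 1.22 and 3.58 on replicate B. On the day 6 replicate A, 39.3% of the features scored as high or higher. All 12 of its spot values were above 0, which held for this gene alone among the 4. This depends on the centring: both spots were centred on the array's median over all features. With first spots alone, centred on their own medians, its lowest array stood at -0.17.

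**Figure D1:**
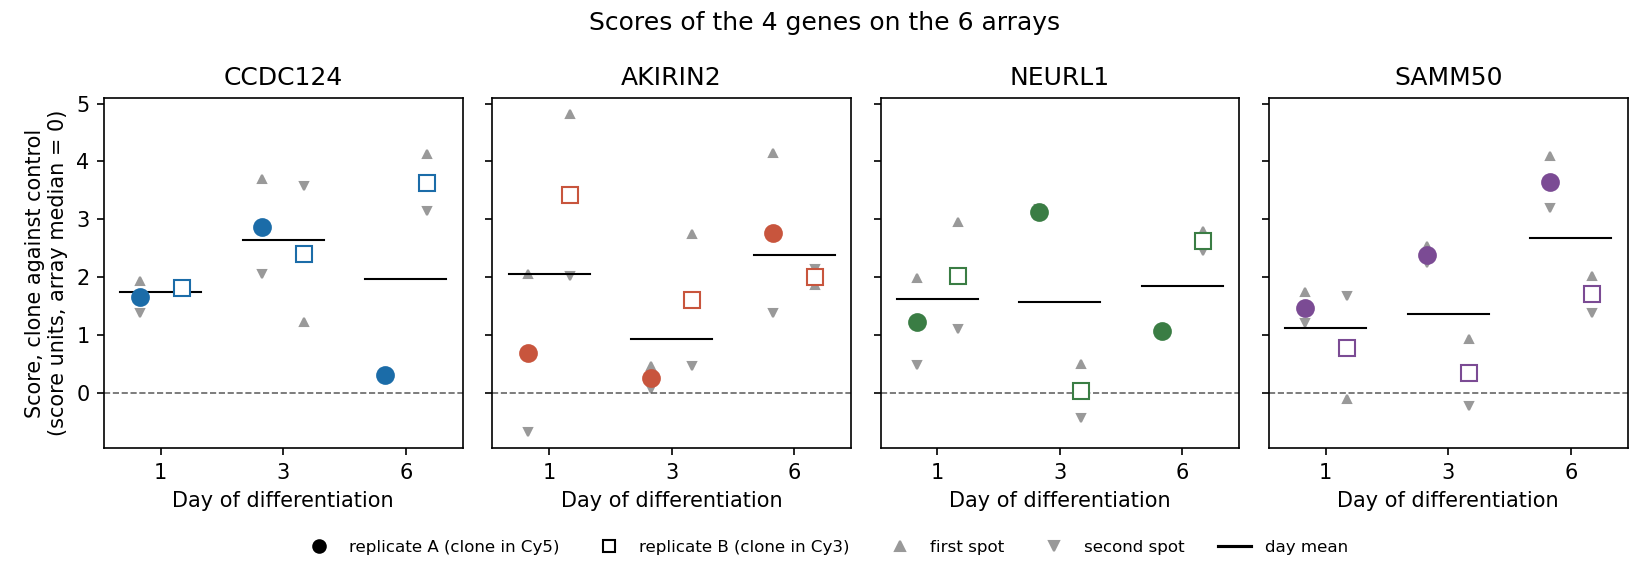
Scores of clone against control (score units, vertical axis) of CCDC124, AKIRIN2, NEURL1 and SAMM50 by day of differentiation; filled circles are replicate A, open squares replicate B, grey triangles the first (upward) and second (downward) spot, and black lines the day means. All 24 array values lie above 0, the lowest being NEURL1 at 0.04 on the day 3 replicate B, while 4 of the 48 spot values lie below 0.

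Over the 4 genes, 18 of 24 array values were at least 1 and 11 were at least 2. Above 0 on all 6 arrays were 65 of 2466 features (2.64%), 39 of them genes, while 71 (2.88%) were below 0 on all 6. By mean over the days the 4 genes were ranked 9th (CCDC124), 14th (AKIRIN2), 16th (SAMM50) and 19th (NEURL1) of all features. By their lowest array they were less extreme: among the 65 features SAMM50 was ranked 19th, CCDC124 20th, AKIRIN2 24th and NEURL1 54th. With both spots above 0 on every array, under that same centring, there were 11 probes, among them CCDC124 and none of the other 3 genes. All of these values were used in the choice of the genes, and nothing is read from them.

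**Figure D2:**
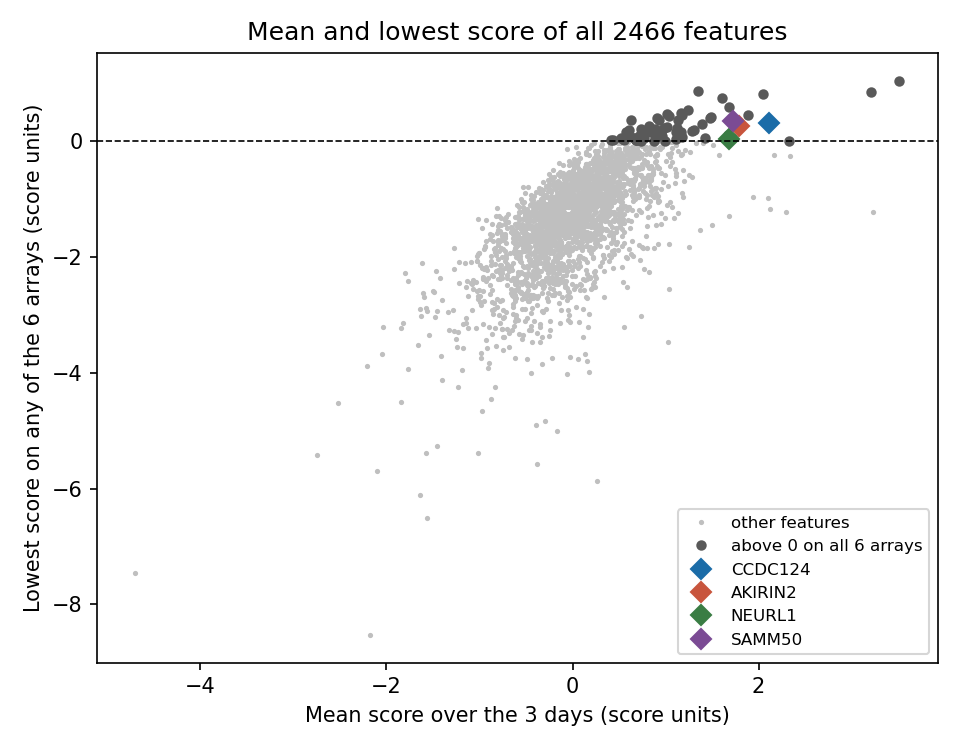
Mean score over the 3 days (horizontal axis) against the lowest score on any of the 6 arrays (vertical axis), both in score units, for all 2466 features; dark points are the 65 features above 0 on all 6 arrays and diamonds the 4 genes. NEURL1, at a lowest score of 0.04, lies closest of the 4 to the dashed line at 0.

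Around the threshold, the genes just inside were YPEL3, with a lowest array of 0.01 and a mean of 2.33, VDAC2, a mitochondrial porin, with a mean of 0.99, and HADHA, a subunit of the trifunctional protein of fatty acid oxidation, with a mean of 0.44. The mean of YPEL3 rests largely on the day 3 replicate B, at 9.11, and its next highest array was at 2.45. Just outside were SEC11A, a subunit of the signal peptidase, with a mean of 0.59, FXR2, an RNA-binding protein, with a mean of 0.96, and the ribosomal protein RPS2, with a mean of 1.05 and a lowest array of -0.02. NEURL1, with 1 array at 0.04, lay nearly as close to the threshold.

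By size on both arrays of a day, the 4 genes differed from day to day. At least 1 unit on both day 1 arrays was reached by CCDC124 and NEURL1 (81 features, 3.28%). On day 3 CCDC124 alone reached it (100 features, 4.06%), and on day 6 the other 3 genes did (132 features, 5.35%). At least 2 units on both arrays was reached by CCDC124 on day 3 (0.446% of features), by AKIRIN2 on day 6 (0.689%) and by none of the 4 on day 1 (0.527%). Day means of at least 1 on all 3 days were found for CCDC124, NEURL1 and SAMM50 and for 16 features in all (0.649%). Among genes that were also above 0 on all 6 arrays, TOB2, an antiproliferative protein, was the only other one, with day means from 1.18 to 1.96. These counts rest on the scores that chose the genes.

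The size of the scores varied over the arrays. The SD over the 6 arrays was 1.14 for CCDC124, 1.20 for AKIRIN2, 1.13 for NEURL1 and 1.18 for SAMM50, each above the median of 0.985 over all features. The SD over the 3 day means was 0.14 for NEURL1 and 0.46 for CCDC124, below the median of 0.664 over all features, and 0.76 for AKIRIN2 and 0.83 for SAMM50, above it.

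Whether the difference between clone and control changed with differentiation was asked by comparing the days in a limma fit of the 6 arrays over all features. Its error is only the spread between the dye-swapped arrays of a day, which may be technical. None of the 4 genes changed between any pair of days, with limma's adjusted p from 0.728 to 0.998 and a lowest unadjusted p of 0.148 over the 12 differences. In these fits 4 features (0.162%) passed between days 1 and 3, 9 (0.365%) between days 1 and 6, and 1 (0.0406%) between days 3 and 6. SAMM50 had the largest difference, 1.55 ± 1.01 (SE) higher on day 6 than on day 1, with a 95% interval from -0.61 to 3.71 (limma's adjusted p = 0.728). AKIRIN2 was 1.45 ± 1.04 (SE) higher on day 6 than on day 3, with an interval from -0.76 to 3.66 (limma's adjusted p = 0.762). CCDC124 differed by 0.90 ± 1.06 (SE) between days 3 and 1, with an interval from -1.37 to 3.16. NEURL1 had differences of -0.05, 0.22 and 0.27, and their intervals ran from -2.35 to 2.58. Changes of 2 units between days thus lay within the interval of at least 1 comparison for each gene, and the fit does not show that the scores stayed level.

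**Figure D3:**
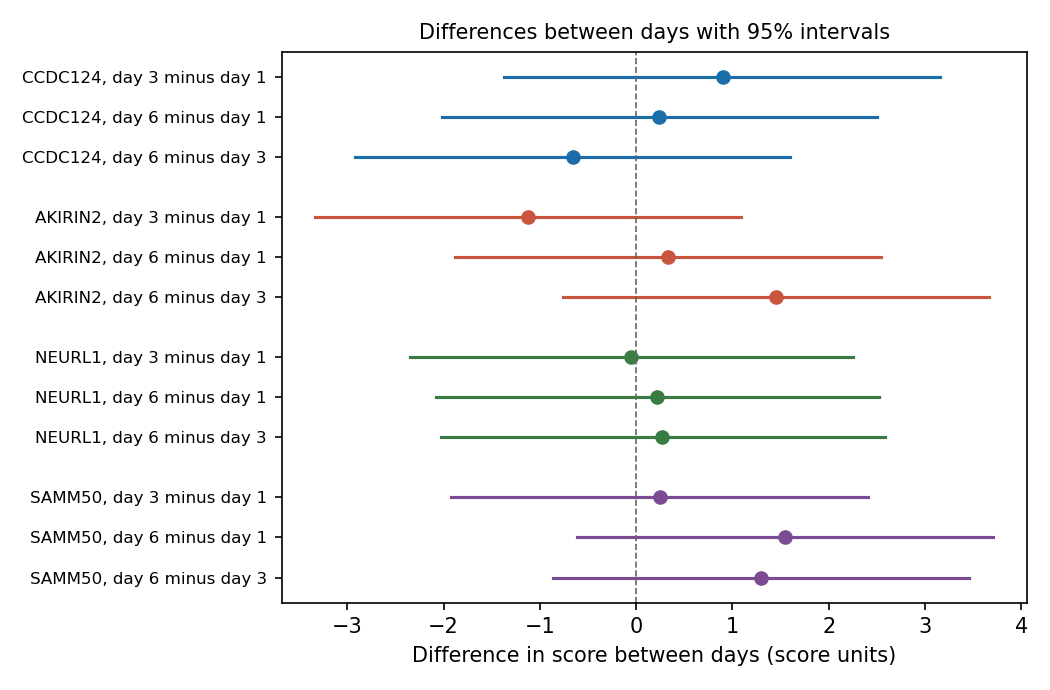
Difference in score between days (score units, horizontal axis) for each of the 4 genes; points are the later day minus the earlier day and bars the 95% intervals of the limma fit. All 12 intervals include 0, and the largest difference is 1.55 for SAMM50 between days 6 and 1.

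Dye orientation was compared because the clone carried Cy5 on every replicate A and Cy3 on every replicate B. SAMM50 was higher on replicate A on 3 of 3 days, by 0.70, 2.04 and 1.93, and averaged 2.50 on replicate A and 0.95 on replicate B. This difference of 1.55 ± 0.71 (SE; 95% interval -0.04 to 3.15) did not pass limma's test over all features (adjusted p = 0.974; unadjusted p = 0.0554). Differences of 1 sign on all 3 days were found for 24.5% of the features. AKIRIN2 averaged 1.24 on replicate A and 2.34 on replicate B, with B higher on 2 of 3 days. CCDC124 averaged 1.61 and 2.62, a gap that came from day 6, where replicate A minus replicate B was -3.32. NEURL1 averaged 1.81 and 1.56, with gaps of opposite sign on day 3, where replicate A was 3.08 units higher, and on days 1 and 6. None of the 4 passed (limma's adjusted p from 0.974 to 0.999). Of all 2466 features 0 (0%) passed in limma, and 107 had an unadjusted p under 0.05.

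On every array the median over first spots exceeded that over second spots, by 0.39 to 0.86, though not every pair followed this. The first spot was the higher on 4 of 6 arrays for CCDC124 and on 5 of 6 for each of AKIRIN2, NEURL1 and SAMM50. With first spots alone, centred on their own medians, the lowest array stood at -0.17 for CCDC124 and -0.53 for SAMM50, and AKIRIN2 and NEURL1 stayed above 0 throughout. With second spots alone it stood at -0.47 for AKIRIN2 and -0.04 for NEURL1, and the other 2 genes stayed above 0. So 2 of 4 genes met the rule in each case, not the same 2. Of all 2466 features 55 did with first spots alone and 63 with second spots alone. The means of the 4 genes over the days lay between 1.24 and 2.39 in all 8 cases.

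The neighbours of each gene in probe order were read in case scores depended on position, which was not tested. Of the 10 probes within 5 places of each gene, 0 were above 0 on all 6 arrays (2.64% of all features). Their mean scores ran from -0.39 to 0.22 around NEURL1, next to which lie an unnamed probe and SCRIB, and from -0.90 to 1.06 around AKIRIN2, which lies between UBAP1 and TESK1. Around SAMM50, between 2 unnamed probes, they ran from -0.75 to 0.78. Around CCDC124 they ran from -2.71 to 0.85, and the probes next to it, HIGD2A and PPP4C, stood at -0.36 and 0.31. As an alternative, the median of 10 probes at even places, up to 10 on either side, was subtracted, so that adjacent probes were not used. All 4 genes then lay above 0 on all 6 arrays, as did 84 of all 2466 features. Their means were then 1.85 for CCDC124, 1.78 for AKIRIN2, 1.90 for NEURL1 and 1.78 for SAMM50. CCDC124 then stood at 0.03 on the day 6 replicate A, while the lowest array of NEURL1 moved from 0.04 to 0.70. Because the 4 genes were chosen for scores above 0, standing above neighbours, or above 0 after subtraction, tests no effect of position.

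**Figure D4:**
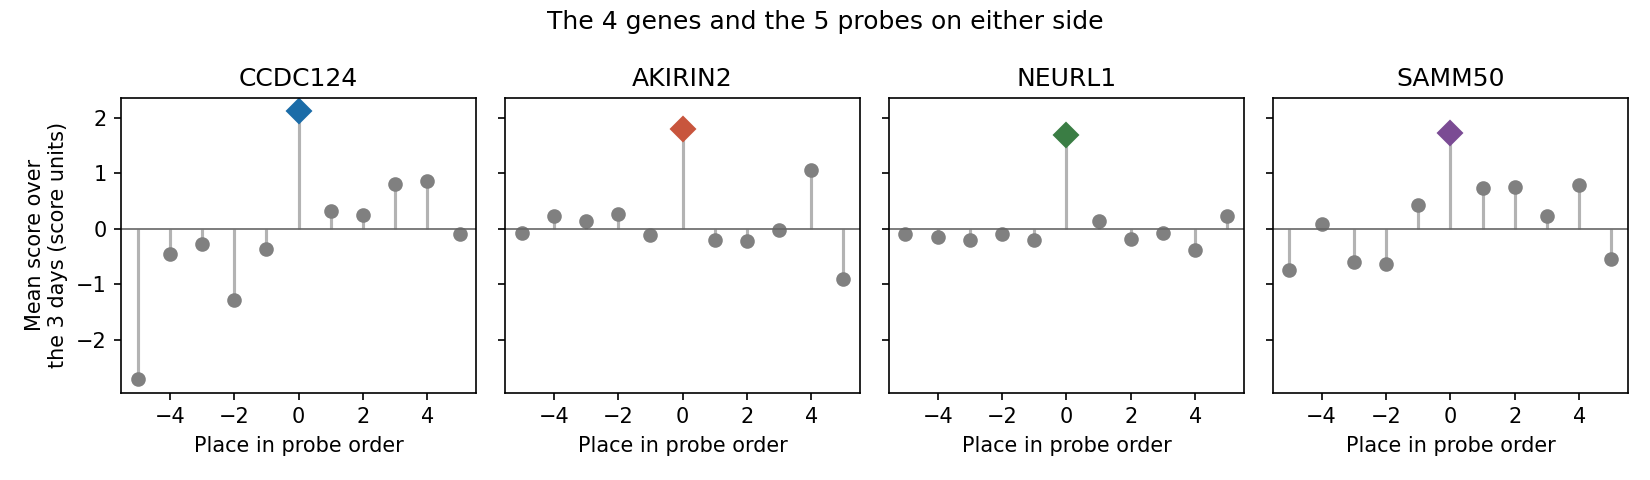
Mean score over the 3 days (score units, vertical axis) of each of the 4 genes (diamond, place 0) and of the 5 probes on either side in probe order (grey circles). The neighbours lie between -2.71 and 1.06. Each of the 4 genes stands above its 10 neighbours, which is likely from the choice of the genes by their scores.

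The profiles of the 4 genes were compared by distance, and whether they differ beyond the spread between arrays was not tested. The root mean square difference of their scores over the 6 arrays was smallest between CCDC124 and NEURL1, at 1.12, and largest between CCDC124 and SAMM50, at 1.84. Each gene had other genes nearer to it, picked from all named genes and given here by that distance as a description. Nearest to CCDC124 were USP24 (0.672), a ubiquitin-specific protease, TOB2 (0.686) and ATP5MC3 (1.02), a subunit of the ATP synthase ring. USP24 stood at 1.36 and 0.45 on day 1, 3.48 and 2.08 on day 3, and 0.69 and 3.25 on day 6, with the same low replicate A and high replicate B on day 6 as CCDC124. Nearest to AKIRIN2 were STIP1 (0.926), a co-chaperone, UQCRH (1.11), a subunit of respiratory complex III, and ST6GALNAC2 (1.15), a sialyltransferase. Nearest to NEURL1 were NAPA (0.876), an adaptor of vesicle fusion, NDUFS1 (0.991), a subunit of respiratory complex I, and the mitochondrial ribosomal protein MRPL20 (1.02). Nearest to SAMM50 were NDUFS1 (0.810), ATP5MC2 (0.989), another ATP synthase ring subunit, and RIPOR1 (1.02). None of these genes passed limma's test of the shared change over the days (adjusted p from 0.104 for USP24 to 0.765 for ST6GALNAC2). They were picked for scores like those of genes chosen for lying above 0, and the test used the same scores. Its p-values are therefore not independent of the pick, and nothing is read from them.

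Genes of broad classes related to the 4 were followed in 12 lists, which held 103 other measured genes. Of these, 51 had a mean score above 0 and 52 below it. In limma's test of the shared change on the 3 day means 0 of the 103 passed (lowest adjusted p = 0.188) and 8 had an unadjusted p under 0.05. Of all 2466 features 9 passed (0.365%), 5 higher (0.203%) and 4 lower (0.162%), and 164 had an unadjusted p under 0.05. Above 0 on all 6 arrays were 5 of the 103, TIMM10, VDAC2, UBB, RNF10 and TRIM55 (2.64% of all features), and below 0 on all 6 was RPS20 (2.88% of all features). The median over all features was 0.0028.

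Around SAMM50, 12 other genes of mitochondrial protein import had a median of 0.09, with 7 above 0 and 5 below. TIMM10, a chaperone of the intermembrane space, averaged 0.89 ± 0.27 (SD, n = 3 days) and HSPA9, the motor chaperone of the matrix, 0.57 ± 0.29. At the low end TOMM7, a small subunit of the import pore complex, averaged -0.96 ± 1.10 and TIMM44, which tethers the motor, -0.38 ± 0.36. Of 3 other beta-barrel proteins, the porins VDAC2 and VDAC1 averaged 0.99 ± 0.77 and 0.40 ± 0.64, and VDAC3 averaged -0.26 ± 0.62. VDAC2 stood above 0 on 6 of 6 arrays, as SAMM50 did, but its day 3 mean was only 0.12. The 5 genes listed with MICOS and the cristae had a median of 0.19. Among them CHCHD2, a small intermembrane space protein, averaged 1.50 ± 1.69, with day means of -0.39, 2.88 and 2.01, while CHCHD3 averaged 0.23 and IMMT, the core of MICOS, 0.19. At the low end were MICOS13 at -0.17 and CHCHD10 at -0.22. None of these genes passed.

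Around AKIRIN2, 10 proteasome genes had a median of 0.01, with 5 above 0 and 5 below. PSMD2 (0.62 ± 0.65) and PSMC1 (0.33 ± 1.53), both of the regulatory particle, stood highest, and PSMC3 (-0.34 ± 1.25) and SEM1 (-0.61 ± 0.65) lowest. Of 5 genes of nuclear import, the importin IPO13 averaged 0.62 ± 0.76, KPNA3 0.54 ± 0.30, IPO5 0.00 ± 0.16 and NUTF2, the carrier of Ran, -0.45 ± 1.21. SMARCD3, the muscle-enriched BAF60C subunit, was the 1 measured gene of 26 listed for SWI/SNF, at -0.28 ± 1.22. None of these genes passed, and their scores lay on both sides of 0.

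Around NEURL1, the Notch pathway was nearly unmeasured, with 2 other genes of 45 listed. HES1, a repressor that Notch activates, averaged -0.58 ± 0.20 and was above 0 on 1 of 6 arrays, and NCSTN, a subunit of gamma-secretase, averaged 0.11 ± 0.73. Among 13 other genes of ubiquitin and RING ligases the median was 0.49, with 7 above 0 and 6 below, and 3 were above 0 on all 6 arrays (2.64% of all features). UBB, a polyubiquitin gene, averaged 1.67 ± 1.15 and TRIM54, a sarcomere-associated ligase, 1.26 ± 1.83. The day means of UBB were 2.88, 1.53 and 0.61, and those of TRIM54 0.20, 3.38 and 0.21. Lowest were RNF123 at -0.83 ± 0.68 and ELOB, the elongin B adaptor, at -1.41 ± 0.95. None of these genes passed.

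Around CCDC124, 5 other genes of ribosome dormancy and of the DRG proteins had a median of -0.03. NEMF, which acts on stalled ribosomes, averaged 0.54 ± 0.66 and the GTPase DRG1 0.33 ± 0.99, while the elongation factor EEF2 averaged -0.62 ± 0.13 and DRG2 -0.05 ± 0.58. The 26 translation factors had a median of -0.14, from EIF4A2, an initiation helicase (0.91 ± 0.63), and EIF4EBP2, an inhibitor of initiation (0.87 ± 0.51), down to the initiation factor subunit EIF3F (-1.01 ± 0.77) and EEF1B2 (-1.19 ± 1.95). The 21 small ribosomal subunit proteins had a median of -0.17, from RPS2 (1.05 ± 0.26) and RPS25 (0.95 ± 0.93) to RPS23 (-0.75 ± 0.78) and RPS20 (-1.28 ± 0.56). Of the centrosome and midbody list only PCM1 (-0.26 ± 0.89) and TSG101 (-0.55 ± 0.61) were measured besides CCDC124. None of these genes passed.

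**Figure D5:**
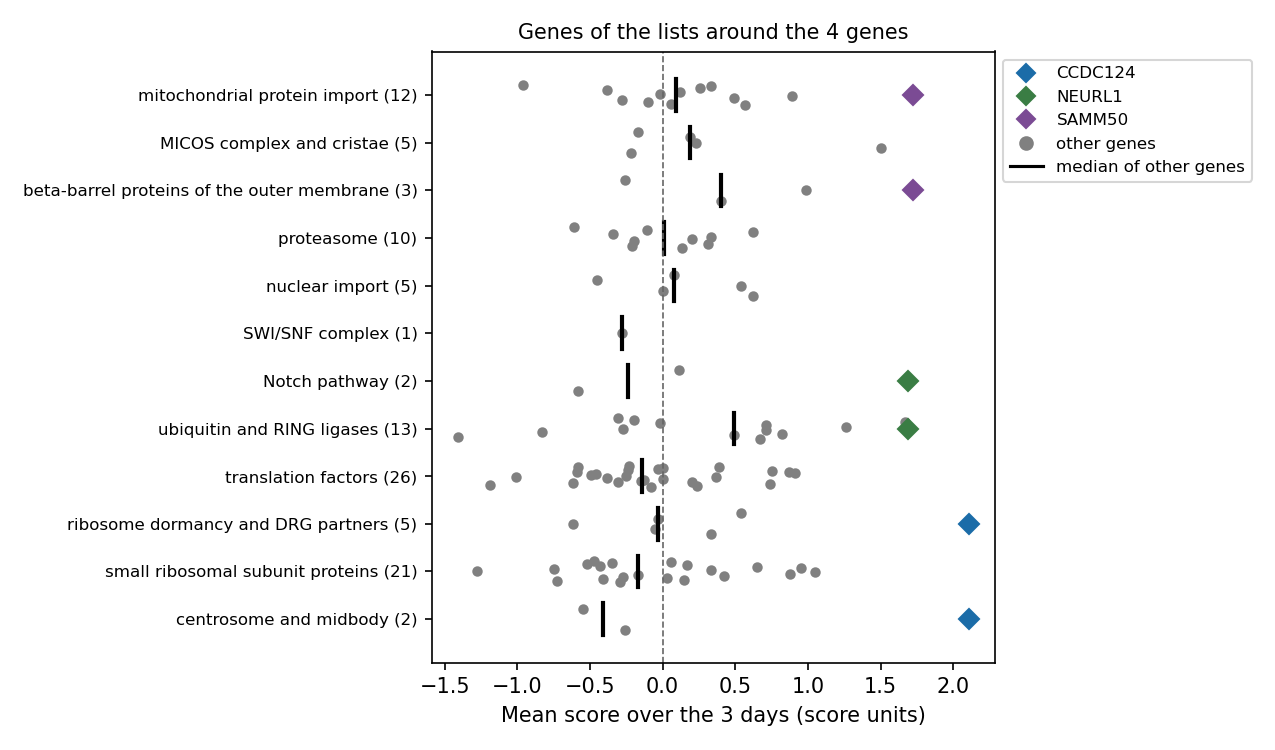
Mean score over the 3 days (score units, horizontal axis) of the genes of 12 lists around the 4 genes, with the number of other measured genes in brackets; grey circles are these genes, black lines their medians and diamonds those of the 4 genes that belong to a list. The list medians lie between -0.41 and 0.49; AKIRIN2 was put in no list and is not shown.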

How the data were processed

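The authors' deposited table gives 1 score per spot and array. Per the labels' protocols, a tyramide kit labelled the cDNA of Trizol-purified total RNA. Scanner, filters, normalization and scaling are not given in the sources used here. Of all values 2 lay beyond 16, which a log2 ratio of a 16-bit scanner cannot reach, so the values were read as scores. There were 0 missing values.

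Duplicate spots (odd and following even number, the same symbol in 1743 of 1743 named pairs) were averaged, then the probes of a gene (144 genes had several), and each array was centred on its median over 2466 features. limma 3.58.1 in R 4.3.3 was fitted to all features with Benjamini-Hochberg adjustment (threshold 0.05, two-sided): an intercept on the 3 day means for the shared change, 3 day coefficients on the 6 arrays for differences between days, and a dye term added for replicates A and B. The scripts were tested on simulated data. P-values measure only the spread between these samples. Figures used Python 3.11.15 and matplotlib 3.10.9.

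The members, lists and tests were chosen with earlier results of these data known. Besides the 4 genes, the genes named are the 3 nearest to each by root mean square difference, the 3 on either side of the threshold of the rule, the adjacent probes, and the 2 highest and 2 lowest of each list. TOB2, UBB and CHCHD2 fall under these rules, but their further values were picked after being seen. Genes given beyond the rules, such as RNF10, TRIM55, IMMT and HBA2, were also picked after their values were seen. Alternatives were values as deposited, scale normalization, neighbouring probes subtracted, either spot alone, separate probes, 6 separate arrays, a replicate block, and leaving out each array or day. The counts at 1 and 2 units and the count of the 4 genes meeting the rule were added after seeing the data.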

Additional observations from a re-analysis of the deposited data

How the results depend on the processing

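Means over fewer arrays or days lie above 0 by the choice of the genes, and their sign shows nothing. Without 1 array the mean ran from 1.56 (without the day 6 replicate B) to 2.67 (without the day 6 replicate A) for CCDC124, from 1.34 to 2.25 for AKIRIN2, from 1.17 (without the day 3 replicate A) to 2.20 (without the day 3 replicate B) for NEURL1, and from 1.38 to 2.06 for SAMM50. With neighbouring probes subtracted NEURL1 stood at 1.90. With the first spot alone 2 of the 4 genes met the rule, and with the second spot alone 2. Leaving out arrays or days leaves the count at 4 by construction, since the genes were chosen for lying above 0 on all 6 arrays.

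Over the 204 alternative values of the 16 differences between days or dye orientations of the 4 genes, 0 passed in limma (adjusted p from 0.549 to 1) and 176 kept their direction. Where leaving out an array left a day with 1 array, that array was assumed to vary like those of the other days. Some of the 204 values could not differ from the main value, so 176 is not a count of independent checks. A difference between days keeps its value with the replicate block, and without an array of the day not compared. Between replicates A and B, leaving out either array of a day gives the same value. The sign turned between days 6 and 1 with scale normalization (CCDC124 -0.07, AKIRIN2 -0.02, NEURL1 -0.06), with neighbouring probes subtracted (CCDC124 -0.07) and with the first spot alone (AKIRIN2 -0.54, NEURL1 -0.64). Between days 3 and 1 it turned with neighbouring probes subtracted (NEURL1 0.34) and with the second spot alone (NEURL1 0.56, SAMM50 -0.44). With neighbouring probes subtracted it also turned for SAMM50 between days 6 and 3 (-0.25) and for NEURL1 between replicates A and B (-0.64). Without 1 array, differences between days 3 and 1 ran from 0.66 to 1.13 for CCDC124, -2.49 to 0.24 for AKIRIN2, -1.59 to 1.49 for NEURL1 and -0.77 to 1.26 for SAMM50. Between days 6 and 1 they ran from -1.42 to 1.90, -1.03 to 1.70, -0.55 to 0.99 and 0.58 to 2.51 in the same order. Between days 6 and 3 they ran from -2.32 to 1.00, 0.78 to 2.12, -1.27 to 1.81 and 0.28 to 2.32, and between replicates A and B from -1.74 to 0.16, -2.04 to -0.29, -1.17 to 1.14 and 1.31 to 1.98.

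Above 0 on all arrays left were 99 to 122 features without 1 array, 209 without day 1, 175 without day 3 and 193 without day 6, where fewer arrays had to agree. The shared change was called for 0 to 8 features without 1 array, 29 without day 1, 0 without day 3, 0 without day 6, 4 with neighbouring probes subtracted, 16 with the first spot and 4 with the second. Between days 3 and 1 the count was 2 with the first spot, 2 with the second and 0 to 4 without 1 array. Between days 6 and 1 it was 14 with neighbouring probes subtracted, 3 with the second spot, 15 with separate probes and 0 to 28 without 1 array. Between days 6 and 3 it was 2, 3, 0 and 4 with neighbouring probes subtracted, the first spot, the second spot and separate probes, and 1 to 7 without 1 array. The cause of these moves was not tested.

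With the replicate block (letter, and so dye orientation, as a term) 2, 5 and 0 features passed between days 3 and 1, 6 and 1, and 6 and 3. None of the 4 genes passed with it (limma's adjusted p from 0.730 to 0.998). The differences between replicates A and B correlated across features at -0.0018, -0.012 and -0.038 between pairs of days. Duplicate spots correlated at only 0.249 to 0.602 within an array. Values near 0 therefore cannot decide whether the letters pair arrays by anything besides the dye. Each array correlated best with the other array of its day, at 0.16 to 0.21, which does not bear on the letters.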
